A study of Mus musculus with 5 samples.

Results

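Genes for 10 transcription factors of the CD4-CD8 lineage choice were followed in sorted CD4 single positive (CD4 SP) thymocytes: *Zbtb7b* (encoding Th-POK), *Gata3*, *Runx1*, *Runx2*, *Runx3*, *Cbfb*, *Tcf7* (TCF1), *Lef1*, *Satb1* and *Tox*. They were chosen by name for their role in this choice, with earlier results of these data known, and they are 10 of the 55487 genes in the count tables. Each library came from 1 mouse, and there were 3 wild type (WT) libraries and 2 from *Tet2/3* DKO mice (DKO below). All mice were C57BL/6J, and the methods give their age as 21 to 30 days. The DKO mice were *Tet2*-/- *Tet3* flx/flx CD4Cre, so that *Tet2* was missing from every cell while *Tet3* was deleted by a Cre that the *Cd4* promoter drives from the DP (CD4+CD8+) stage on. The sorted cells were CD24 low, TCRb+, CD4+ and CD8-, and cells that bound the CD1d tetramer, which marks iNKT cells, were gated out. The comparison asked whether the levels of the lineage choice factors, and the balance between them, differed between cells with and without TET2 and TET3.

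A DP thymocyte that has been positively selected becomes either a CD4 helper or a CD8 cytotoxic cell, and the choice rests on factors that oppose each other. Th-POK holds the CD4 fate and represses the CD8 program, GATA3 acts upstream of it, and RUNX1 and RUNX3, each paired with CBFb, silence *Cd4* and *Zbtb7b* in CD8 cells. TCF1, LEF1, SATB1 and TOX act early in the choice and are needed for the induction of Th-POK, while RUNX2 is best known from bone. TET proteins oxidize methylated cytosine, which in mammals lies mostly in CpG dinucleotides, and so open a route to demethylation.

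The *Runx* genes are regulated in part by their own products, and the letters that RUNX proteins recognize were looked for in RefSeq promoters (build GRCm38.p6, 250 bases before to 50 bases after a start site, 32851 promoters). Of the 10 genes, 9 had at least 1 entry, with 20 promoters in all. The RUNX motif AACCACA, read on both strands, was in 5.27% of all promoters. A tandem pair with 1 base between the copies, AACCACANAACCACA, was in 5 of them (0.0152%), and 3 of the 5 belonged to *Runx1*, *Runx2* and *Runx3*. The other promoters with the pair were those of *Gm16225* and *Olfr24*. The windows of 30 bases that hold the pair are shown because this shared feature sits at all the *Runx* genes, whose log2 fold changes differed in sign. The capitals mark the motif copies.

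*Runx1*, chr16:92826025-92826054, minus strand: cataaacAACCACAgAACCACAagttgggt

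*Runx2*, chr17:44814583-44814612, minus strand: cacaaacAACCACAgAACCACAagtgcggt

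*Runx3*, chr4:135120503-135120532, plus strand: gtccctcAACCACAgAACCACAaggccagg

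The first base of the pair lay 27 bases after the start site of *Runx1*, 22 bases after that of *Runx2* and 135 bases before that of *Runx3*, so it lay in an annotated exon of *Runx1* and *Runx2* and outside the exons of *Runx3*. These promoters held 2 CpG at *Runx1*, 2 at *Runx2* and 8 at *Runx3*, whereas the other promoter of *Runx1* held 35 and that of *Runx3* held 45, against a median of 7 over all promoters.

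For *Zbtb7b*, the bases before both of its RefSeq start sites are shown with the CpG dinucleotides in capitals, because they are the positions at which TET proteins can act near the starts of the gene with the largest decrease of the 10. Both stretches lie outside annotated exons.

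*Zbtb7b*, chr3:89387672-89387921, minus strand: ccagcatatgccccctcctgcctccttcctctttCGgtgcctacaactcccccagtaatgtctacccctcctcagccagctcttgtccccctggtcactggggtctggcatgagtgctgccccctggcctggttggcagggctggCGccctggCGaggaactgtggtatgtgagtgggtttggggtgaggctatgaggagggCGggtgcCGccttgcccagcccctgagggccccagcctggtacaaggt

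*Zbtb7b*, chr3:89393379-89393476, minus strand: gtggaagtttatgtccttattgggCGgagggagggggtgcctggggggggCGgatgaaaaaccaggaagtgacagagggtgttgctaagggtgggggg

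The stretches held 5 and 2 CpG, and the whole promoters held 7 and 8. Both *Zbtb7b* promoters were thus close to the median of all promoters, while 14 of the 20 promoters of the lineage choice genes lay above it. Methylation was not measured in these RNA libraries. The GATA motif (AGATAA or TGATAA, both strands) was in 1 of the 20 promoters, at *Lef1*, against 18.6% of all promoters. The TCF/LEF motif (CTTTGAA or CTTTGAT, both strands) was in none of the 20, against 8.65% of all. A motif here is a match of letters and not a shown binding site.

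The reads counted on genes came to between 17607089 and 27267031 per library. *Tet3* was lower in DKO cells (a log2 fold change of -1.50, adjusted p = 0.00121 in edgeR's test), while *Tet2* was at 52.4, 54.2 and 57.8 CPM in WT and at 91.5 and 58.6 in the DKO libraries (0.46, adjusted p = 0.135). Its transcript was thus not lower, and a count over the whole gene does not show whether part of it is missing, so the *Tet2* genotype was not checked by these counts. The sex of 2 mice went against their labels. WT replicate 1 is labelled female but had 6821 counts on 4 Y-linked genes and 0 on *Xist*, and DKO replicate 1 is labelled male but had 7 counts on the Y-linked genes and 744 on *Xist*. The methods describe the mice as male. Results for the lineage choice factors are therefore also given without WT replicate 1 where that changes a call. Without DKO replicate 1 a single DKO library is left, so log2 fold changes are given for such fits and no adjusted p. DKO replicate 1 also had 5.70% of its reads outside annotated features, against 3.51% to 3.72% in the other libraries.

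All 10 lineage choice genes passed the filter on low counts. At an adjusted p of 0.01, 3 of them (*Zbtb7b*, *Lef1* and *Tcf7*) were lower in DKO cells, none was higher and 7 did not pass. Over all genes tested, 530 of 13525 (3.92%) passed in either direction and 203 (1.5%) passed as lower. At an unadjusted p of 0.05 in edgeR, 6 of the 10 passed as lower and 3 as higher, against 10.6% and 12.4% of all tested genes. DESeq2 at an adjusted p of 0.01 called 4 of the 10 lower and 0 higher, against 2.94% and 3.83% of all genes. In 9 of the 10 genes the DKO libraries lay outside the range of the WT libraries, below it in 6 and above it in 3 (*Runx2*, *Runx3* and *Tox*), as they did for 39.1% of all tested genes. The median log2 fold change of the 10 genes was -0.52, and that of all tested genes was 0.0076. Without DKO replicate 1, 6 of the 10 passed, while the share of all genes that passed rose to 9.14%. Without WT replicate 1 only *Zbtb7b* passed of the 10, and 1.14% of all genes did.

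**Figure D1:**
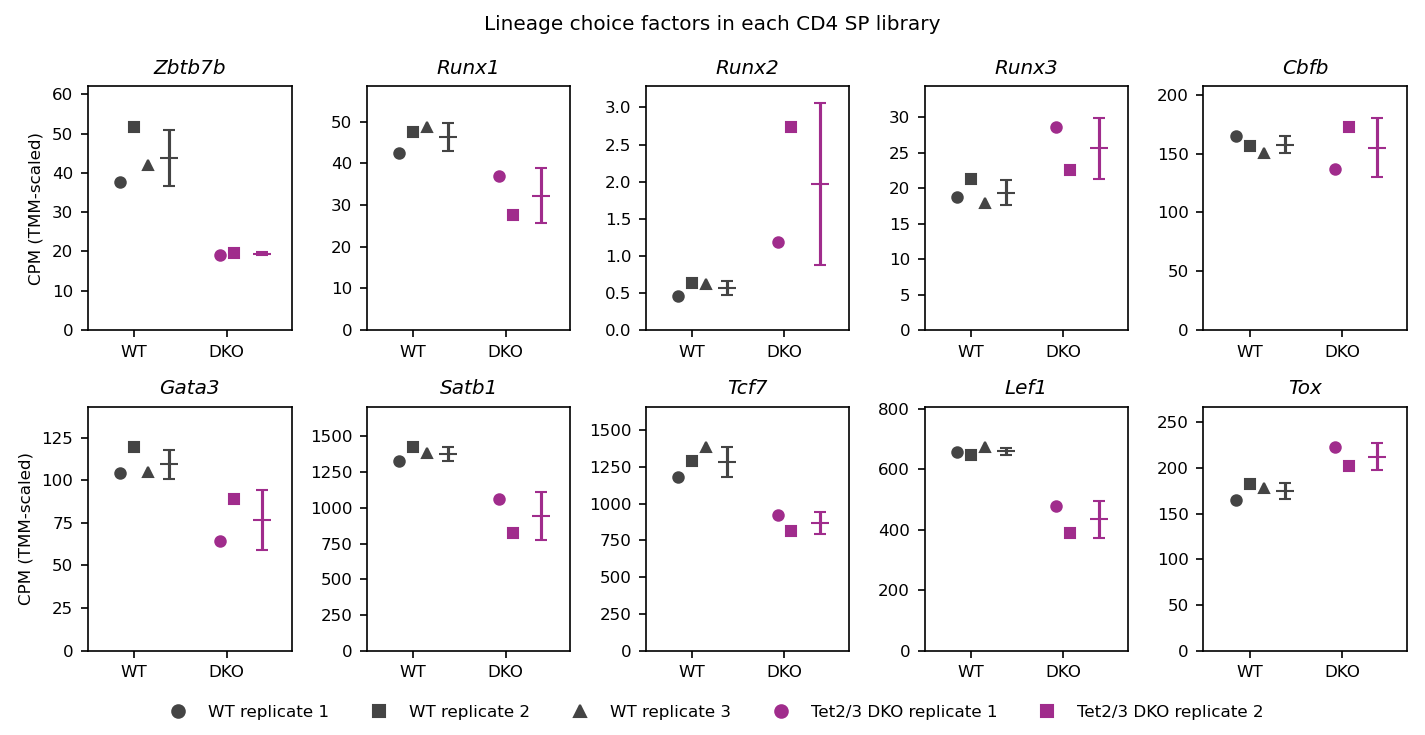
Level of each lineage choice factor in each library, in counts scaled to a common library size (CPM, TMM-scaled, linear axes from 0, a separate axis for each gene). Points are libraries (WT grey, DKO purple), and the bar beside each group is the mean with the SD (n = 3 and n = 2). The 2 DKO points of *Zbtb7b* lie at 19.1 and 19.7 CPM, below the lowest WT library at 37.7, and *Cbfb* is the gene whose groups overlap.

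*Zbtb7b* showed the largest decrease. This gene (ENSMUSG00000028042, chromosome 3 of mm10, 89377644 to 89394776, minus strand) was counted 975, 1228 and 1152 times in the WT libraries (replicates in order, here and below), against 401 and 352 in the DKO libraries. Scaled to a common library size, these were 37.7, 51.7 and 42.0 CPM for WT, and 19.1 and 19.7 CPM for DKO. WT replicate 2 was the highest library, and the DKO libraries were almost equal and far below every WT library. *Zbtb7b* fell to 44.3% of its WT level, a log2 fold change of -1.17 (95% interval -1.54 to -0.81, edgeR's quasi-likelihood test, adjusted p = 0.00224). Of the 10 genes it was the one with the least difference between the DKO libraries, with replicate 1 at 0.971 times replicate 2. The adjusted p passed 0.01 in 11 of 13 alternative fits and missed it without WT replicate 2 (0.0138) and without WT replicate 3 (0.0198). In these bulk libraries, fewer cells that express a gene and less of its RNA per cell cannot be told apart.

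*Gata3* (ENSMUSG00000015619, chromosome 2, 9857078 to 9890034, minus strand), which is needed for the CD4 fate upstream of Th-POK, was counted 2691, 2832 and 2876 times for WT, against 1349 and 1589 for DKO. WT levels were 104, 119 and 105 CPM, and DKO levels were 64.3 and 88.9. Each DKO library lay below WT, and replicate 1 was the lower of them. The log2 fold change was -0.52 (95% interval -0.84 to -0.20) and did not pass (edgeR, adjusted p = 0.0566). The size depended on the DKO library. Replicate 1 alone against WT gave -0.78, and replicate 2 alone gave -0.30.

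Among the RUNX genes, *Runx1* and *Runx3* differed from WT in opposite directions, and neither passed the test. *Runx1* (ENSMUSG00000022952, chromosome 16, 92601466 to 92826149, minus strand), the RUNX factor of immature thymocytes, was counted 1097, 1128 and 1340 times for WT, against 775 and 493 for DKO. WT levels were 42.4, 47.5 and 48.8 CPM, and DKO levels were 36.9 and 27.6, with DKO replicate 2 the lowest of all. The log2 fold change was -0.51 (95% interval -0.84 to -0.19, edgeR, adjusted p = 0.0622). It was -0.75 without DKO replicate 1 and -0.34 without replicate 2.

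*Runx3* (ENSMUSG00000070691, chromosome 4, 135120652 to 135177990, plus strand), the RUNX factor of CD8 cells, was counted 486, 507 and 492 times for WT, against 602 and 404 for DKO. After scaling for library size the WT values were 18.8, 21.4 and 17.9 CPM, and the DKO values 28.7 and 22.6. The groups did not overlap, but DKO replicate 2 lay close to WT replicate 2. The log2 fold change of 0.41 (95% interval 0.07 to 0.76) did not pass (edgeR, adjusted p = 0.142). It was 0.22 without DKO replicate 1, the library with the sex conflict, and 0.56 without replicate 2. It passed in none of the 13 alternative fits.

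*Runx2* (ENSMUSG00000039153, chromosome 17, 44495987 to 44814797, minus strand) was nearly silent in WT, with 12, 15 and 17 counts, and reached 25 and 49 counts in the smaller DKO libraries. This came to 0.464, 0.632 and 0.619 CPM for WT, against 1.19 and 2.74 for DKO. The log2 fold change of 1.73 (95% interval 0.65 to 2.81) was the largest increase of the 10 and also the least precise, and it did not pass (edgeR, adjusted p = 0.0582). DKO replicate 2 carried more of it. Without replicate 1 the value was 2.25, and without replicate 2 it was 1.04. It also depended on the strand counted. With first-strand counts it was 1.16 (edgeR, adjusted p = 0.295) and with second-strand counts 2.20 (adjusted p = 0.0159).

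*Cbfb* (ENSMUSG00000031885, chromosome 8, 105170674 to 105217989, plus strand), the partner without which RUNX proteins bind DNA poorly, was the gene whose groups overlapped. WT counts were 4273, 3708 and 4141, and DKO counts were 2879 and 3092. DKO replicate 1 was the lowest library at 137 CPM and replicate 2 the highest at 173, with WT between 151 and 165. The log2 fold change was -0.02 (95% interval -0.28 to 0.23, edgeR, adjusted p = 0.939). Its sign was not stable, at 0.13 without DKO replicate 1 and at 0.01 without WT replicate 1.

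The TCF1 and LEF1 genes, which encode related DNA-binding factors of the Wnt pathway, fell together. *Tcf7* (ENSMUSG00000000782, chromosome 11, 52252371 to 52283014, minus strand) was counted 30574, 30619 and 37984 times for WT, against 19343 and 14617 for DKO. As CPM, WT stood at 1183, 1290 and 1384, and DKO at 922 and 818. The DKO libraries lay below every WT library, and the log2 fold change was -0.56 (95% interval -0.78 to -0.34, edgeR, adjusted p = 0.00740), which leaves 67.7% of the WT level.

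*Lef1* (ENSMUSG00000027985, chromosome 3, 131110471 to 131224356, plus strand) was counted 16990, 15391 and 18464 times for WT, against 10032 and 6969 for DKO. Scaled, it was even across WT at 657, 648 and 673 CPM, and it stood at 478 and 390 for DKO. It fell by 0.60 on the log2 scale to 65.8% of WT (95% interval -0.83 to -0.38, edgeR, adjusted p = 0.00611). Both *Tcf7* and *Lef1* missed 0.01 when any 1 of the WT libraries was left out. For *Tcf7* the adjusted p in edgeR was 0.0229 without WT replicate 1, 0.0478 without replicate 2 and 0.0454 without replicate 3. For *Lef1* the same values were 0.0386, 0.0373 and 0.0404. The log2 fold change ran from -0.66 to -0.49 for *Tcf7* and from -0.76 to -0.48 for *Lef1* over all libraries left out, with the larger decrease without DKO replicate 1 and the smaller without DKO replicate 2 for both genes.

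*Satb1* (ENSMUSG00000023927, chromosome 17, 51736187 to 51833290, minus strand), which encodes a factor that organizes chromatin loops in thymocytes, was counted 34283, 33790 and 37901 times for WT, against 22327 and 14742 for DKO. WT levels were 1326, 1424 and 1381 CPM, and DKO levels were 1064 and 825. The groups did not overlap, with replicate 2 the lowest, and the log2 fold change was -0.54 (95% interval -0.80 to -0.29). This missed 0.01 (edgeR, adjusted p = 0.0164) and passed the wider threshold of 0.05, making it the 4th of the 10 genes to do so. Of all 13525 tested genes, 1174 passed this wider threshold. *Satb1* passed 0.01 with no filter on low counts (edgeR, adjusted p = 0.00485) and in DESeq2 (adjusted p = 0.000103). The log2 fold change was -0.74 without DKO replicate 1 and -0.39 without replicate 2.

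*Tox* (ENSMUSG00000041272, chromosome 4, 6686353 to 6991557, minus strand), which encodes an HMG box factor needed for CD4 cells to form at all, was counted 4268, 4326 and 4888 times for WT, against 4672 and 3607 for DKO. Because the DKO libraries were smaller, this came to 165, 182 and 178 CPM for WT, and 223 and 202 CPM for DKO. Each DKO library lay above WT, while the log2 fold change of 0.28 (95% interval 0.07 to 0.48) did not pass (edgeR, adjusted p = 0.101).

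**Figure D2:**
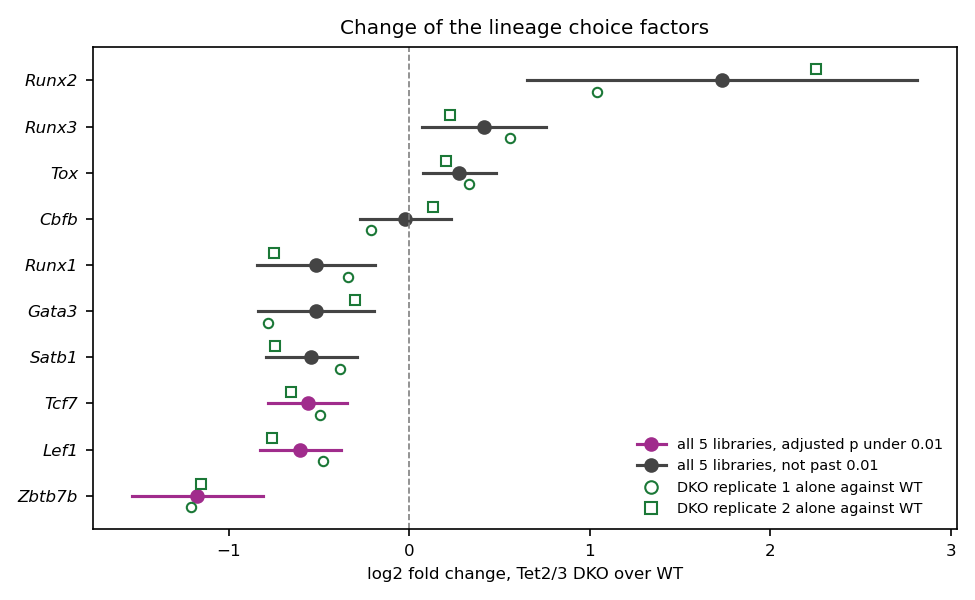
Log2 fold change (DKO over WT) of the 10 lineage choice factors with its 95% interval from edgeR, in order of size, where purple marks an adjusted p under 0.01 over all tested genes. Open green symbols are the fits of each DKO library alone against the 3 WT libraries: they nearly coincide for *Zbtb7b* (-1.21 and -1.15) and lie apart for *Gata3* (-0.78 and -0.30), *Runx1* (-0.34 and -0.75) and *Runx2* (1.04 and 2.25).

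The DKO libraries differed from each other for most of these genes, and not in 1 direction. *Runx1*, *Satb1*, *Runx3*, *Lef1*, *Tcf7* and *Tox* were higher in replicate 1, which had 1.34, 1.29, 1.27, 1.23, 1.13 and 1.10 times the CPM of replicate 2. *Runx2*, *Gata3* and *Cbfb* were lower in replicate 1, at 0.435, 0.723 and 0.793 times replicate 2. For *Runx1*, *Runx2*, *Satb1*, *Lef1* and *Tcf7* the library with the sex conflict therefore lay closer to WT, and for *Gata3*, *Runx3* and *Tox* the other library did.

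Levels of different genes were compared per length, in counts per kilobase of the gene's exon union, scaled to a common library size (RPKM). In WT the order was *Tcf7* at 490 ± 38.4 RPKM (SD, n = 3), *Lef1* at 75.0 ± 1.40, *Satb1* at 72.4 ± 2.57, *Cbfb* at 45.2 ± 2.09, *Gata3* at 27.5 ± 2.16, *Tox* at 23.0 ± 1.18, *Zbtb7b* at 7.84 ± 1.29, *Runx3* at 3.87 ± 0.357, *Runx1* at 3.85 ± 0.281 and *Runx2* at 0.0647 ± 0.0106. *Lef1* and *Satb1* did not differ beyond the spread of the WT libraries, nor did *Runx3* and *Runx1*, and every other neighbor in the order was separated in all libraries, on this scale and with these counts. *Tcf7* stood at the 99.5th percentile of the tested genes, *Zbtb7b* at the 61.8th and *Runx3* and *Runx1* near the 49th. In this CD4 population the gene that specifies the CD4 fate was thus a moderately expressed transcript.

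In DKO cells the order at the lower end differed. *Runx3* was at 5.74 and 4.52 RPKM, above *Zbtb7b* at 3.42 and 3.52, whereas in WT *Zbtb7b* at 6.75, 9.25 and 7.51 was above *Runx3* at 3.76, 4.27 and 3.58. *Tox* at 29.3 and 26.5 RPKM was above *Gata3* at 16.2 and 22.3, the reverse of the order in WT. With the longest transcript of each gene in place of the exon union, *Zbtb7b* was still above *Runx3* in WT (10.1 against 4.99) and below it in DKO cells (4.48 against 6.60). With this length *Satb1* was above *Lef1*, *Tox* above *Gata3* and *Runx1* above *Runx3* in WT, and in DKO cells *Runx1* at a mean of 5.50 was above *Zbtb7b* at 4.48. These orders thus depended on the length used.

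**Figure D3:**
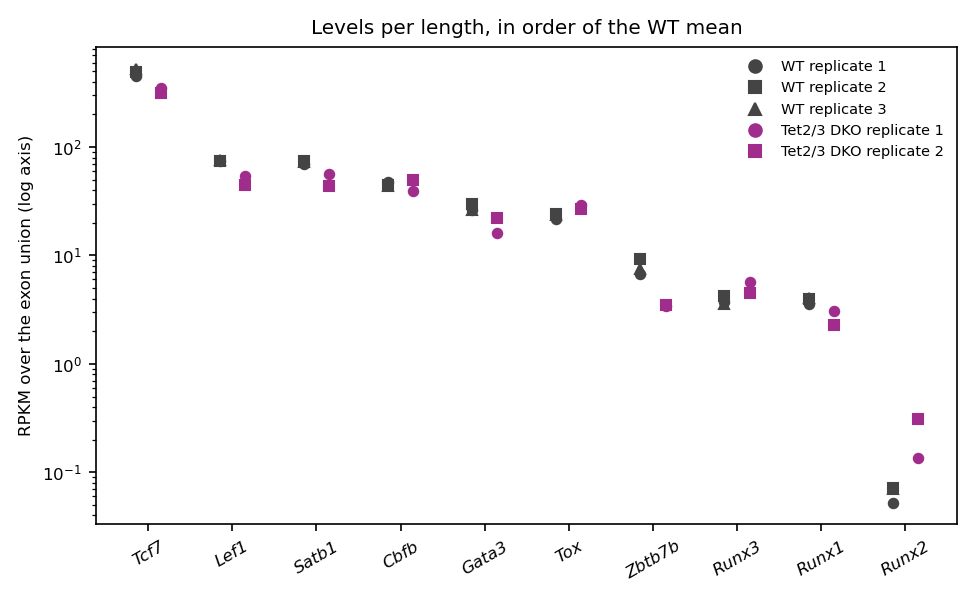
Level per length (RPKM over the exon union, log axis) of the 10 genes in each library, in order of the WT mean, with WT in grey and DKO in purple. *Tcf7* stands above the rest near 490 RPKM in WT, *Runx2* lies at or below 0.310 RPKM in every library, and the purple points of *Runx3* lie above those of *Zbtb7b* while the grey points lie below.

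The balance between opposing factors was taken as a ratio of levels per length within a library, which does not depend on the scaling between libraries. The ratio of *Zbtb7b* to *Runx3* was 1.80, 2.17 and 2.10 for WT, against 0.596 and 0.780 for DKO. Every WT library was above 1 and every DKO library was below it. The log2 ratio was lower by 1.56 (a difference of -1.56 between group means), and it stayed between -1.76 and -1.37 when any 1 library was left out. In an exact permutation test over libraries (two-sided) the p was 0.1, which is the smallest that 3 against 2 libraries can give, and 0.133 after adjustment over the 8 ratios examined.

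The other ratios that involve *Zbtb7b* were also lower in DKO cells, as was that of *Gata3* to *Runx3*. Those of *Runx3* to *Runx1* and of *Runx2* to *Runx1* were higher. The log2 ratio of *Zbtb7b* to *Runx1* differed by -0.63, from 2.02 in WT to 1.31 as a linear ratio over the exon union, since *Runx1* was lower as well. That of *Zbtb7b* to *Gata3* differed by -0.63 and that of *Gata3* to *Runx3* by -0.93. These sizes depended on the library left out, with ranges of -0.86 to -0.40 for *Zbtb7b* to *Runx1*, -0.84 to -0.42 for *Zbtb7b* to *Gata3* and -1.34 to -0.52 for *Gata3* to *Runx3*, each set at both ends by leaving out a DKO library. *Runx3* to *Runx1* stood at 1.06, 1.08 and 0.883 in WT, and at 1.87 and 1.97 in DKO cells, a log2 difference of 0.93 that stayed between 0.84 and 0.98 with any 1 library left out. This was the ratio on which the DKO libraries were closest to each other relative to the shift. *Runx2* to *Runx1* differed by 2.21, with a wide gap between the DKO libraries (0.0439 and 0.135), and by 3.02 without DKO replicate 1 and 1.40 without replicate 2. Each of these had the smallest possible exact permutation p of 0.1 in the counts without regard to strand, so none could reach 0.05. With first-strand counts, *Runx2* to *Runx1* differed by 1.57 (exact permutation p = 0.2).

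Within the RUNX family, the summed level per length was 7.78 ± 0.481 RPKM in WT (SD, n = 3) and 8.03 ± 1.29 in DKO cells (SD, n = 2), a difference well inside the spread. The share of *Runx3* in this sum was 51.2%, 51.5% and 46.5% in WT, and 64.1% and 63.4% in DKO cells. The share of *Runx1* was 48.1%, 47.7% and 52.6% in WT, and 34.4% and 32.2% in DKO cells. The shares thus did not overlap between the groups, but none of the 3 genes passed edgeR's test, and the ratio of *Runx3* to *Runx1* had an adjusted exact permutation p of 0.133. With the longest transcript as the length, *Runx3* made up 38.4% ± 2.65 in WT and 53.2% ± 0.0696 in DKO cells, so that it was the lesser share in WT and the larger in DKO cells. The ratio of *Cbfb* to the RUNX sum was 6.47, 5.41 and 5.62 in WT and 4.41 and 6.98 in DKO cells, on either side of WT (exact permutation p = 1).

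Both *Tcf7* and *Lef1* fell, and the proportion of the one to the other overlapped between the groups in the counts without regard to strand. *Tcf7* to *Lef1* stood at 6.02, 6.66 and 6.89 in WT, and at 6.46 and 7.02 in DKO cells, a log2 difference of 0.05 (exact permutation p = 0.7). With second-strand counts the groups did not overlap, with a difference of 0.13 and the smallest possible exact p of 0.1. The summed level of the 4 TCF/LEF genes was 567 ± 39.3 RPKM in WT and 381 ± 35.3 in DKO cells, and *Tcf7* made up 86.4% ± 0.818 and 87.0% ± 0.676 of it.

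**Figure D4:**
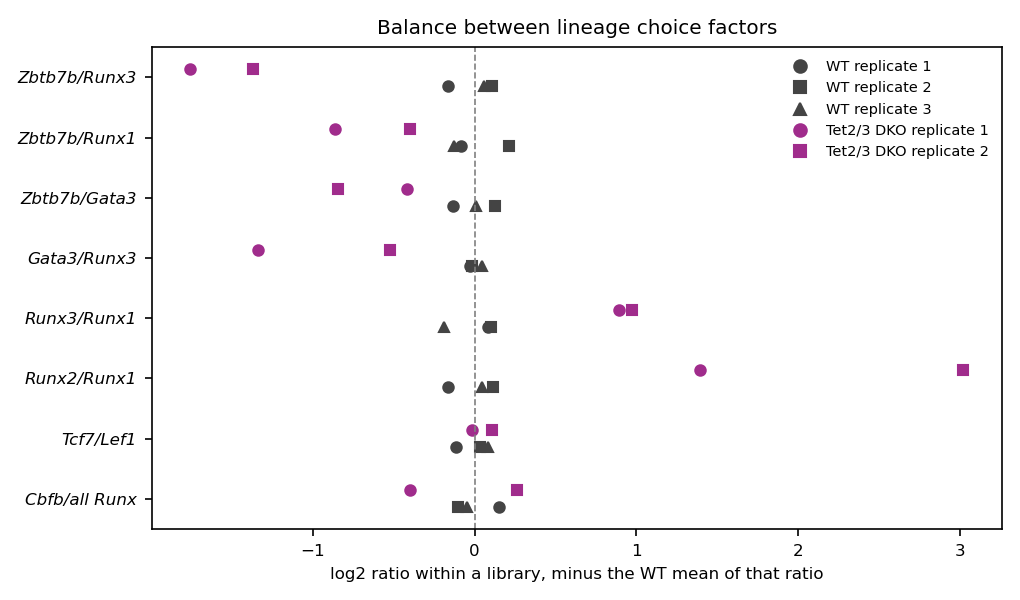
Balance between lineage choice factors, as the log2 ratio of levels per length within each library minus the WT mean of that ratio. Points are libraries (WT grey, DKO purple): the DKO libraries lie outside the WT range for the upper 6 ratios and overlap it for *Tcf7* to *Lef1*, and they lie on either side of WT for *Cbfb* to the sum of the *Runx* genes.

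Genes whose pattern over the 5 libraries was nearest to a lineage choice factor were found by the root mean square difference of log2 CPM, each centred on its WT mean, over 7030 other genes. Nearest to *Zbtb7b* were *Ephb6* (0.07), *Galnt6* (0.13) and *Vim* (0.15). *Ephb6*, a kinase-dead Eph receptor of T cells, was at 69.1, 84.4 and 68.4 CPM for WT, and 33.1 and 35.1 for DKO. Like *Zbtb7b*, it was highest in WT replicate 2 and nearly equal in the DKO libraries. Nearest to *Gata3* were *BC043934*, *Med22* and *Zfp260*, at 0.04 to 0.05. *Runx1* was the 2nd nearest of all genes to *Satb1* (0.05), between *Actn1* and *Spata6*, while *Lef1* was the 6th and *Tcf7* the 20th. These 4 factors were thus close in pattern, whereas *Zbtb7b* and *Gata3* each followed another pattern. These are descriptions over 5 libraries and were not tested.

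Other genes of the choice were taken in 4 lists by role. Of 11 genes listed as paralogs of the lineage choice factors, or named after one, 6 were expressed enough to be tested, and 1 of them fell. This was *Tcf7l1*, which encodes a TCF family member that mostly represses, counted 156, 179 and 164 times for WT, against 39 and 24 for DKO (a log2 fold change of -2.0, edgeR, adjusted p = 0.00379). None of the paralogs passed as higher in the main edgeR fit, against 1 (*Tox2*) at an unadjusted p of 0.05 and in DESeq2. In edgeR, 1 paralog also passed with no filter on low counts, the legacy dispersion moderation, second-strand counts or a term for replicate number. *Tox2* was counted 15, 11 and 10 times for WT, against 44 and 133 for DKO (3.29, edgeR, adjusted p = 0.0129), and was picked out after its values were seen. Of 16 cofactors, such as the Groucho family corepressors that RUNX and TCF1 recruit, 14 were tested and none passed at an adjusted p of 0.01, with log2 fold changes from -0.50 to 0.98. At an unadjusted p of 0.05 in edgeR, 1 cofactor was higher and 2 were lower (*Tle4*, *Tle3* and *Ctnnb1*, picked out in the same way), and DESeq2 called none.

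Of 16 other regulators of the choice, all were tested and 1 passed, as higher. At an unadjusted p of 0.05 in edgeR, 3 were higher (*Myb*, *Ikzf3* and *Id2*) and 3 lower (*Id3*, *Ets1* and *Egr1*), and DESeq2 called *Id3* lower as well, all but *Myb* picked out after their values were seen. The gene that passed was *Myb*, which encodes a factor that promotes CD4 differentiation and is also high in immature thymocytes, counted 105, 93 and 91 times for WT, against 219 and 197 for DKO. It rose by a log2 fold change of 1.51 (edgeR, adjusted p = 0.00203). With any 1 WT library left out, neither *Tcf7l1* nor *Myb* passed. The medians of these lists were -0.0031 for the paralogs, -0.08 for the cofactors and -0.06 for the regulators, near that of all tested genes, while the lineage choice factors stood at -0.52.

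Of 13 coreceptor and lineage program genes, 5 rose, 2 fell and 6 did not pass. Over all 13525 tested genes, 327 passed as higher and 203 as lower. The list of 13 mixes genes of the CD4 and CD8 programs, and its median log2 fold change was 1.65. The genes that rose were *Eomes* (5.32), *Nkg7* (3.74), *Itgae* (2.63), *Xcl1* (2.23) and *Prf1* (1.67), each of which CD8 T cells or NK cells are known to express. Others of the kind did not pass, among them, picked out after their values were seen, *Gzmb* (2.89, adjusted p = 0.111, counted 21 and 843 times in the DKO libraries), *Ccl5* (1.65, 0.0174) and *Crtam* (-0.35, 0.506). The genes that fell were the coreceptor genes *Cd4* (-0.67, adjusted p = 0.0095) and *Cd8b1* (-1.29, adjusted p = 0.000168). *Cd8a*, the other CD8 chain, was counted 70, 69 and 148 times for WT, against 121 and 155 for DKO (0.94, adjusted p = 0.128, all edgeR). With any 1 WT library left out, *Cd8b1*, *Eomes*, *Nkg7*, *Itgae* and *Prf1* still passed, while *Cd4* did not (adjusted p from 0.0203 to 0.0419) and neither did *Xcl1* (0.0228 to 0.0495).

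**Figure D5:**
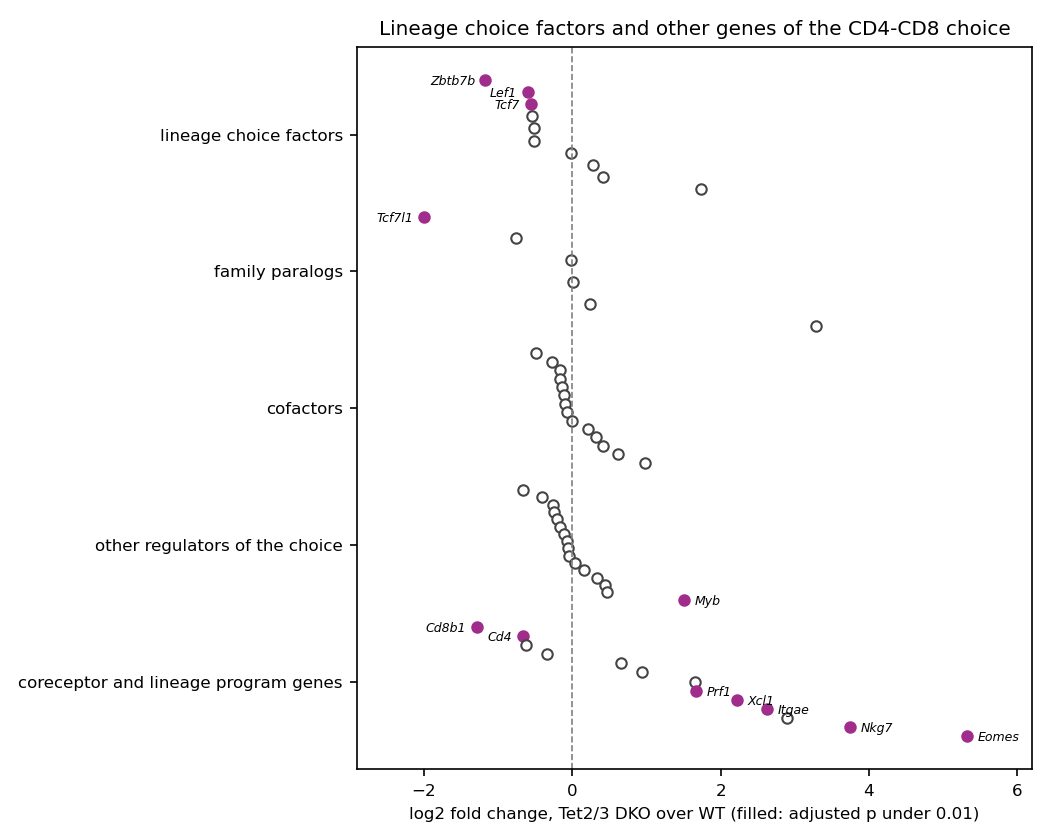
Log2 fold change (DKO over WT) of each tested gene of the lineage choice factors and of 4 lists of other genes of the CD4-CD8 choice. Filled purple points have an adjusted p under 0.01 in edgeR's test and are named: 3 lineage choice factors, *Tcf7l1* and both lower coreceptor genes lie to the left of 0, and *Myb* and 5 genes of the coreceptor and lineage program list lie to the right.

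The sorted cell type was checked on marker genes. The 8 T cell identity genes summed to between 10683 and 11279 CPM in WT and to 10350 and 9168 in DKO cells, with *Cd4* and *Cd5* lower. The DP genes *Rag1*, *Rag2* and *Ptcra* had at most 3 counts in any library, and the summed DP markers were at 29.0 to 39.8 CPM in WT and 21.1 to 21.3 in DKO cells. The iNKT factor gene *Zbtb16* was at 0.548 to 1.24 CPM in WT and 12.0 to 14.2 in DKO cells, although tetramer-binding cells had been gated out. The 4 NK cell markers summed to 1.90 to 2.82 CPM in WT and to 9.30 and 22.8 in the DKO libraries, and 2 of the 4 (*Ncr1* and *Klrb1c*) were higher. The 6 myeloid and dendritic markers summed to 6.92 to 12.6 CPM in WT and to 20.1 and 44.6 in DKO cells, with *Cd14* and *Itgax* at no more than 2 counts in any library and none of the 6 past the test. Most of this sum was *Lyz2*, at 5.83 to 10.8 CPM in WT and 18.6 and 42.5 in the DKO libraries. *Csf1r*, counted 7, 2 and 1 times for WT, against 15 and 19 for DKO, also lay above WT (edgeR, adjusted p = 0.0294), while *Flt3* was lower there (0.990 CPM as a WT mean, 0.286 and 0.336 for DKO) and *Itgam* overlapped between the groups.

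The 4 regulatory T cell markers summed to 146 to 171 CPM in WT and to 103 and 154 in the DKO libraries. Of them *Foxp3* was lower. *Il2ra*, *Ctla4* and *Ikzf2* overlapped between the groups and did not pass, with log2 fold changes of -0.52, 0.09 and 0.37. The 5 B cell markers summed to 5.61 to 6.96 CPM in WT and 8.62 to 9.11 in DKO cells. The 2 gamma delta T cell markers summed to 12.8 to 17.6 and 15.5 to 18.5 CPM, the 4 erythroid markers summed to at most 0.336 CPM in any library, and the 4 thymic epithelial markers were at 1.64 to 3.08 CPM in WT and 0.224 to 0.238 in DKO cells. In DKO replicate 2, *Satb1*, *Runx1*, *Lef1* and *Tcf7* were lower and *Runx2* was higher than in replicate 1. It had the higher marker sum of the pair for NK, myeloid and regulatory T cells, although *Ikzf2* was lower in it (18.3 against 43.2 CPM). The gap was small for iNKT (14.2 against 12.0 CPM), CD8 (35.8 against 34.3), DP (21.3 against 21.1) and erythroid markers (0.336 against 0.191). Of the CD8 markers, *Cd8b1* was lower in it. Replicate 2 had the lower sum for T cell identity, B cell and gamma delta T cell genes. For thymic epithelial genes the sums were nearly equal (0.224 against 0.238). Their part in the levels of the lineage choice factors was not tested.

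Where another gene overlaps, reads that touch both were left out of the counts. The counts used here kept 69.0% to 74.8% of the strand-wise counts of *Lef1*, 72.4% to 79.1% of those of *Tox*, 78.6% to 82.4% of *Runx1*, 70.6% to 89.5% of *Runx2* and 85.3% to 88.5% of *Gata3*, and at least 99.6% of those of the other genes. The levels of these 5 genes are thus understated, and reads of their antisense partners cannot be told apart from their own where the strands are summed. With the counts of both strands summed, a choice made after seeing the data, *Lef1* was above *Satb1* in every WT and DKO library (106 against 72.5 RPKM as WT means). *Runx1* was above *Runx3* in WT (4.78 against 3.87) and below it in DKO cells (3.30 against 5.13), while *Gata3* and *Tox* overlapped in WT and *Zbtb7b* and *Runx1* overlapped in DKO cells. *Zbtb7b* was above *Runx3* in every WT library and below it in both DKO libraries on this scale as well. With counts from either strand alone, the log2 fold change of *Lef1* was -0.68 and -0.66.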

How the data were processed

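RNA of sorted thymic CD4 SP cells (SMART-seq, no molecular identifiers) was measured in 3 WT and 2 *Tet2/3* DKO mice. The authors trimmed reads with fastp 0.21.0, aligned them with STAR 2.7.5a to mm10, and deposited 1 table per library with each gene's read count, unnormalized. The unstranded counts were used, since reads fell evenly on both strands. The deposited clonotype files were not used here. The 10 genes and all gene lists were chosen with earlier results of these data known.

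Counts were tested with edgeR 4.0.16 in R 4.3.3 (quasi-likelihood test with the newer dispersion moderation, TMM scaling, filterByExpr by genotype with a minimum count of 10, genotype as the only term) over all 13525 genes that passed the filter, with Benjamini-Hochberg adjustment and a threshold of 0.01. The study used DESeq2, and DESeq2 1.42.0 was an alternative, as were other normalizations, no filter, the legacy moderation, each strand, a replicate block, a threshold of 0.05, the longest transcript as length, leaving out each library and, added after seeing the data, summed strand counts for levels. A fit without 1 *Tet2/3* DKO library assumes that the remaining library varies as the WT libraries do. GENCODE M21 gave symbols, lengths and coordinates for 55141 identifiers and lacked 346. Length-scaled levels are RPKM: CPM divided by the exon union in kilobases. Ratios were compared by exact permutation over libraries in Python 3.11.15. Intervals of fold changes are 95% intervals from the fit. Each sample is 1 mouse, so the spread is that between mice, and reads are not independent molecules.

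Genes named beside the 10 are the *Tet* genes, *Cd4*, *Cd8a* and *Cd8b1*, sex-linked and cell type marker genes, the genes past the threshold in each list (at most 4 by size of change; a 5th, *Prf1*, is named for completeness), list genes picked out after their values were seen, which the text marks as such, and the 3 genes nearest in pattern to *Zbtb7b*, *Gata3* and *Satb1* among genes whose average log2 CPM is 4 or more. The edgeR step was tested on simulated counts.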

Additional observations from a re-analysis of the deposited data

How the results depend on the processing

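The directions of 9 of the 10 lineage choice factors were the same in all 13 alternative fits. *Cbfb* changed sign with first-strand counts (0.0041), without WT replicate 1 (0.0141) and without *Tet2/3* DKO replicate 1 (0.133), with a range of -0.213 to 0.133 when 1 library was left out. The number of the 10 past the threshold was 0 or 1 with 1 WT library left out. Replicate numbers are shared between the genotypes but belong to different mice, and deviations of same-numbered libraries correlated at 0.0151 and 0.00446, so the numbers were not taken as a pairing. With the replicate block, 1 of the 10 (*Zbtb7b*, adjusted p = 0.00633) passed instead of 3. Over all genes, 530 passed, against 110 to 1312 with 1 library left out, 1025 with DESeq2 and 1174 at a threshold of 0.05. The share of higher genes among them was 61.7%, and 68.4% without WT replicate 1. The 4 lists of other genes held 9 that passed, against 5 to 16 with 1 library left out and 14 with DESeq2.

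The log2 ratio of *Tcf7* to *Lef1* changed sign without WT replicate 1 (-0.0086) and without *Tet2/3* DKO replicate 2 (-0.013, with a range of -0.013 to 0.108; it was 0.130 with second-strand counts), and that of *Cbfb* to the RUNX sum without WT replicate 1 (0.00833) and without *Tet2/3* DKO replicate 1 (0.263, with a range of -0.400 to 0.263). The other 6 ratios had the same direction in all 8 alternatives, while 4 of them moved in size with the *Tet2/3* DKO library left out. The median WT level of the 10 genes was 25.3 RPKM over the exon union, 39.1 over the longest transcript and 30.9 with the counts of both strands summed, an alternative added after seeing the data. The causes were not tested. The 2 *Tet2/3* DKO libraries limit the precision of every fold change.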
